A study of Mus musculus with 18 samples.

Results

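Naive CD4 T cells that over-expressed miR-27 were set against naive CD4 T cells that over-expressed miR-24, with 3 libraries of each genotype out of 18 libraries and 6 genotypes in all. The mice of both genotypes were C57BL/6, carried their transgene (Tg) in T cells and are called miR-27 Tg and miR-24 Tg. The labels give neither the promoter of the transgenes nor the number of founder lines or the age of the mice. Cells had been sorted by flow cytometry as CD4+CD25-CD62Lhi, a surface phenotype of T cells that have not met antigen. WT mice, also with 3 libraries, and mice that over-expressed the whole cluster in T cells (cluster Tg, 3 libraries) are given for level only. A gene entered the comparison where it reached 1 RPKM (reads scaled to transcript length and library size) or more in at least 3 of the 6 libraries, which held for 10613 of 23953 gene rows. Values in a list follow the replicate number, 1 to 3, and the labels do not say that each library came from a separate mouse, so the spread that the p-values rest on may be technical in part.

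MicroRNAs guide Argonaute proteins to mRNAs, mostly through pairing of their seed with sites in 3′ UTRs, and bound mRNAs are translated less and decay faster. miR-23, miR-27 and miR-24 are cut from a single precursor, and mice hold such a cluster on chromosome 8 and another on chromosome 13. In T cells these microRNAs are known to restrain helper cell differentiation, with Gata3 and Rel among the described targets of miR-27. The comparison asks how naive T cells with more of one cluster member differ from cells with more of another.

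The seeds of miR-27 and miR-24 do not resemble each other, which is why the mature sequences are shown. They are taken from RefSeq (GRCm38.p6), with the seed, bases 2 to 8, in capitals.
miR-27a-3p: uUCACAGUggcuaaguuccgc
miR-24-3p: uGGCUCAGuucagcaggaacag
miR-27b-3p: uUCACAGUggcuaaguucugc
The first lies at chr8:84208727-84208747 and the second at chr8:84208875-84208896, both on the plus strand, within the same cluster. miR-27b-3p, from the second cluster at chr13:63300760-63300780 on the plus strand, has the same seed as miR-27a-3p. A 3′ UTR pairs with the miR-27 seed where it holds ACTGTGA and with the miR-24 seed where it holds CTGAGCC.

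The library labelled miR-27 Tg replicate 3 stood apart from the other 5, and results are therefore given with it and without it. On log2(RPKM + 1), its correlation over genes with the others was 0.773 to 0.8, while that among the others was 0.919 to 0.951. On the first principal component (59% of the variance) it lay at 109.2, and the others between -28.9 and -17.6. The second component (15.7% of the variance) held 34.6 and 34.0 for miR-27 Tg replicates 1 and 2 and -20.0, -20.6 and -25.2 for the miR-24 Tg libraries. Summed RPKM of 49 ribosomal protein genes was 103187 in replicate 3 and 26340 to 32542 in the other 5, and genes with short 3′ UTRs were raised in it: among genes with no site for either microRNA, the median log2 difference from the WT mean was 0.697 for 3′ UTRs under 500 bases and -0.572 for those over 3000 bases, against -0.013 to 0.063 in the other 5 libraries. Its relative depth, read from the steps between low values, was 0.497 of that of miR-24 Tg replicate 1, and that of the other 4 was 0.753 to 0.933. Absolute depth is unknown. Between 10260 and 10615 genes per library reached 1 RPKM.

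**Figure D1:**
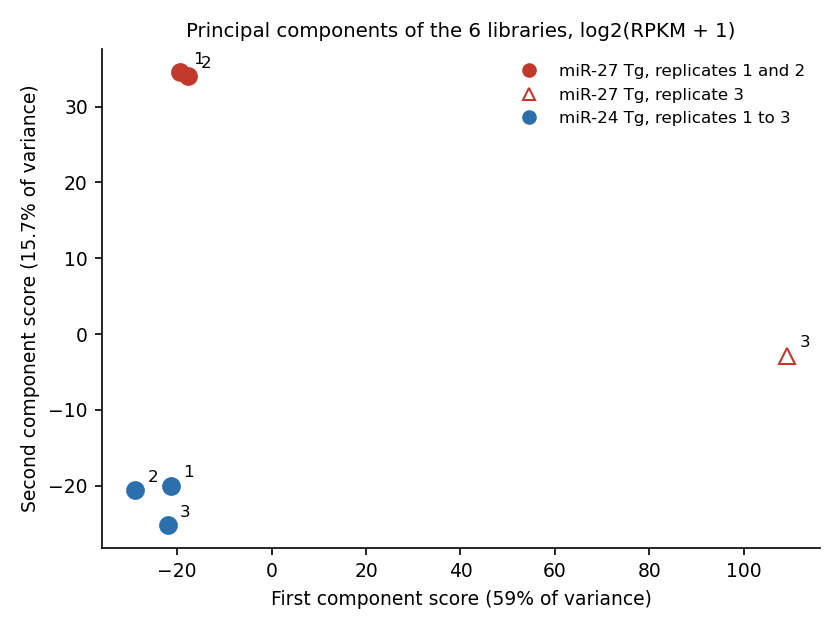
Principal component scores of the 6 libraries on log2(RPKM + 1) of 10613 genes, with the first component (59% of the variance) on the x axis and the second (15.7%) on the y axis; red marks miR-27 Tg, blue miR-24 Tg, and the open triangle is miR-27 Tg replicate 3. That library sits alone at 109.2 on the first component, and the second separates miR-27 Tg replicates 1 and 2 from the 3 miR-24 Tg libraries.

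Each transgenic line showed its own hairpin. The Mir27a row held 216755, 234933 and 27980 RPKM in miR-27 Tg, against 238.5, 89.3 and 587.8 RPKM in miR-24 Tg and a mean of 140 RPKM in WT. The Mir24-2 row was listed at 35.2, 26.8 and 0 RPKM in miR-27 Tg, against 13888, 49237 and 21686 RPKM in miR-24 Tg and a mean of 33.1 RPKM in WT. The groups did not overlap for either hairpin, and replicate 3 had the lowest Mir27a level of its group while still lying far above every miR-24 Tg library. Mir27a rose by 9.92 on the log2(RPKM + 1) scale without miR-27 Tg replicate 3 (adjusted p = 0.00865, limma) and had a fitted log2 of 8.91 with it (adjusted p = 0.0601). Mir24-2 was lower by the same fits, with log2 values of -9.60 (adjusted p = 0.00578) and -11.26 (adjusted p = 0.0601). The Mir23a row overlapped between the groups, while rows for Mir24-1, Mir27b and Mir23b, which belong to the second cluster, were at or near 0 in all 6 libraries. A hairpin is so short that 1 read gives many RPKM, and how far these rows follow the mature microRNAs was not tested. Ddx3y, a Y-linked gene, was at 58.8 RPKM in miR-27 Tg replicate 2 and at 54.8 RPKM in miR-24 Tg replicate 1 and near 0 in the other 4 libraries, which held Xist.

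Without miR-27 Tg replicate 3, 888 genes were higher and 740 lower in miR-27 Tg than in miR-24 Tg at a Benjamini-Hochberg adjusted p under 0.05 with limma, which is 8.37% and 6.97% of the genes tested and 15.3% together. A gene below this threshold is described as called. Of these, 144 higher and 93 lower genes differed by a log2 of 1 or more. With all 6 libraries, 3 genes were higher (0.0283%) and 5 lower (0.0471%; 0.0754% together), and 1412 had an unadjusted p under 0.05 (13.3%). All 8 were among the 1628, and none was called only with replicate 3. In 564 of the 888 and 451 of the 740, the 3 miR-27 Tg libraries did not overlap the 3 miR-24 Tg libraries, which held for 15.4% of all genes upward and 14.6% downward. Since the calls came from 5 of these libraries, only the place of replicate 3 is new in these counts. The median standard error was 0.258 with replicate 3 and 0.110 without it, on the log2 scale. The 1628 calls also rest on single libraries: leaving out one more left 602 calls without miR-24 Tg replicate 1, 73 without miR-24 Tg replicate 3, 18 without miR-27 Tg replicate 1 and 4 without miR-27 Tg replicate 2. In the last pair, the lone miR-27 Tg library is assumed to vary like the miR-24 Tg libraries.

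The WT level lay between the 2 transgenic lines for most called genes. Without replicate 3, the WT mean fell between the miR-27 Tg and miR-24 Tg means in 664 of the 888 genes higher in miR-27 Tg (74.8%) and 573 of the 740 lower genes (77.4%). It was nearer to the miR-24 Tg mean in 459 of the higher genes (51.7%) and 473 of the lower genes (63.9%). Calling genes on the gap between the 2 lines itself favours a WT mean between them, and the share over all tested genes was not computed.

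Among the genes called with all 6 libraries were 3 that were higher in miR-27 Tg: Cacnb3, Grb7 and Car2. Cacnb3, a beta subunit of voltage-gated calcium channels, had 25.8, 25.7 and 22.5 RPKM in miR-27 Tg, against 1.56, 2.84 and 3.79 RPKM in miR-24 Tg and a WT mean of 4.31 RPKM (log2 2.83, SE 0.256, adjusted p = 0.0441). Grb7, an adaptor that binds receptor tyrosine kinases, had 9.03, 8.01 and 10.99 RPKM in miR-27 Tg, against 1.59, 1.48 and 1.33 RPKM in miR-24 Tg (log2 2.06, adjusted p = 0.0326). Car2, a carbonic anhydrase, had 5.95, 7.22 and 6.66 RPKM in miR-27 Tg, against 1.41, 1.17 and 0.893 RPKM in miR-24 Tg (log2 1.82, adjusted p = 0.0414). For all 3 genes replicate 3 lay close to the other miR-27 Tg libraries, and the lowest miR-27 Tg library was above the highest miR-24 Tg library. WT was near the miR-24 Tg level for Cacnb3 and Grb7, and for Car2 it lay between the lines at 2.50 RPKM.

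Ccr9, the receptor that draws T cells to the small intestine, was the only named protein-coding gene among those lower with all 6 libraries. It had 1.99, 1.20 and 0.540 RPKM in miR-27 Tg, against 19.6, 22.3 and 30.6 RPKM in miR-24 Tg and a WT mean of 2.45 RPKM (log2 -3.51, adjusted p = 0.0414). The miR-27 Tg libraries lay within or below the WT range, and each miR-24 Tg library was above every WT library. The other 4 rows were listed at 0 in all 3 miR-27 Tg libraries, so no fold is given. The small nucleolar RNA Snord91a had 955.8, 417.4 and 845.5 RPKM in miR-24 Tg and a WT mean of 947 RPKM, and the hairpins Mir5103 and Mir7033 and the predicted gene Gm12238, which was named after its values were seen, made up the rest. Mir7033 had 48.5, 127 and 64.3 RPKM in miR-24 Tg, and Mir5103 had 55.1, 144 and 146 RPKM. In WT, Mir7033 held 62 to 165 RPKM and Mir5103 0 to 62.7 RPKM. These calls depend on the rows of small RNAs and on single libraries: with microRNA and small nucleolar RNA rows left out of the fit, only Gm12238 was called, while Cacnb3, Grb7, Car2 and Ccr9 each had an adjusted p of 0.0506, and leaving out 1 miR-24 Tg library left 3 to 5 calls.

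Of the genes called only without replicate 3, those with the largest rises in miR-27 Tg, apart from interferon-stimulated genes, came from unrelated families. Rec8, the meiotic subunit of cohesin, had 20.6, 6.75 and 15.4 RPKM in miR-27 Tg, against 0.279, 0.463 and 0.420 RPKM in miR-24 Tg (log2 3.22 without replicate 3, adjusted p = 0.0176). Ckb, the brain-type creatine kinase, had 37.3, 42.8 and 129.7 RPKM in miR-27 Tg, against 4.54, 5.595 and 5.27 RPKM in miR-24 Tg (log2 2.74, adjusted p = 0.00522). Both were separated without overlap also with replicate 3, and WT lay between the lines at 2.19 to 2.48 RPKM for Rec8 and 14.8 to 16.1 RPKM for Ckb. Ttyh3, a tweety family membrane protein, had 138.7, 151.8 and 79.2 RPKM in miR-27 Tg, against 20.4, 27.9 and 28.3 RPKM in miR-24 Tg. Its WT libraries held 80.8 to 89.5 RPKM, so miR-24 Tg was the lower line against WT. Tmie, which belongs to the mechanotransduction machinery of hair cells, had 83.6, 87.9 and 35.0 RPKM in miR-27 Tg, against 12.9, 17.2 and 14.2 RPKM in miR-24 Tg and 27.7 to 36.8 RPKM in WT. Apart from replicate 3, miR-27 Tg lay above every WT library, and miR-24 Tg lay below every WT library. Cd163l1, a scavenger receptor with cysteine-rich domains, had 4.93, 9.93 and 10.7 RPKM in miR-27 Tg, against 0.731, 0.305 and 0.520 RPKM in miR-24 Tg, and 0.0949 to 0.372 RPKM in WT. Tmem176a, a membrane protein of immune cells, stood above WT in both lines, with 30.1, 31.6 and 64.3 RPKM in miR-27 Tg, against 10.3, 4.51 and 5.31 RPKM in miR-24 Tg and 1.74 to 2.46 RPKM in WT. Gpr83, a G protein-coupled receptor found on regulatory T cells, and Gucy1b3, the beta subunit of soluble guanylate cyclase, completed the group, with log2 values of 2.16 and 2.12.

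Of the 12 largest falls among genes called only without replicate 3, 4 were genes known from cytotoxic lymphocytes, a grouping made after their values were seen. Prf1, perforin, had 3.93, 4.04 and 1.65 RPKM in miR-27 Tg, against 27.4, 20.7 and 31.8 RPKM in miR-24 Tg and 13.2 to 16.7 RPKM in WT (log2 -2.45 without replicate 3, SE 0.185, adjusted p = 0.00796). miR-27 Tg lay below WT and miR-24 Tg above it. Klrd1, which encodes CD94, the partner of NKG2 receptors, had 8.68, 6.17 and 11.02 RPKM in miR-27 Tg, against 41.9, 35.2 and 39.6 RPKM in miR-24 Tg and 9.40 to 14.5 RPKM in WT (log2 -2.26, adjusted p = 0.00664). Cst7, an inhibitor of cathepsins in cytotoxic granules, had 4.76, 3.34 and 8.26 RPKM in miR-27 Tg, against 48.5, 31.7 and 33.6 RPKM in miR-24 Tg (log2 -2.93, adjusted p = 0.00803). Ctsw, cathepsin W of CD8 and natural killer (NK) cells, had 14.8, 6.45 and 22.2 RPKM in miR-27 Tg, against 60.4, 64.3 and 81.3 RPKM in miR-24 Tg, where WT held 50.0 to 64.2 RPKM. For each of the 4 genes the highest miR-27 Tg library lay below the lowest miR-24 Tg library. Fasl, the death ligand, had 3.48, 2.41 and 2.02 RPKM in miR-27 Tg, against 9.61, 8.97 and 9.01 RPKM in miR-24 Tg (log2 -1.38, adjusted p = 0.0119). Not every gene of cytotoxic cells was called lower. The granule gene Nkg7 had 23.5, 11.97 and 67.7 RPKM in miR-27 Tg, against 26.6, 13.1 and 16.8 RPKM in miR-24 Tg, with overlapping groups. The granzyme genes Gzma and Gzmk were not called, with log2 values of 0.12 and 0.21 without replicate 3, and Runx3, a transcription factor of CD8 T cells, was called higher (log2 0.54, adjusted p = 0.0178).

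Other large falls concerned Coro2a, a coronin, with 7.85, 7.13 and 2.64 RPKM in miR-27 Tg, against 48.0, 41.0 and 58.3 RPKM in miR-24 Tg, and the claudin Cldn10, with 2.72, 1.79 and 4.12 RPKM in miR-27 Tg, against 20.6, 20.6 and 18.2 RPKM in miR-24 Tg. Rgs1, which dampens chemokine receptor signalling, Neurl3, a ubiquitin ligase, and Prrt1, a membrane protein, were also lower, with log2 values of -2.34, -2.23 and -2.46 without replicate 3. The hairpins Mir22 and Mir467f were at or near 0 in miR-27 Tg replicates 1 and 2, against 8.79, 18.8 and 83.1 RPKM (Mir22) and 8.39, 10.99 and 11.1 RPKM (Mir467f) in miR-24 Tg, and Mir467f was at 16.9 RPKM in miR-27 Tg replicate 3. In WT, Mir22 was listed at 2.02e-05, 1.47e-05 and 25.4 RPKM and Mir467f at 0, 0 and 11.8 RPKM.

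Since a sort can let other cells through, NK markers were read beside the cytotoxic genes. The 10 NK marker genes in the table summed to 17.9, 19.6 and 28.1 RPKM in miR-27 Tg, against 63.1, 41.3 and 44.8 RPKM in miR-24 Tg and 10.3 to 15.5 RPKM in WT. Most of the miR-24 Tg sum was Klrd1 itself. Without it, the other 9 summed to 9.25, 13.4 and 17.1 RPKM in miR-27 Tg, against 21.2, 6.18 and 5.23 RPKM in miR-24 Tg, with overlapping groups. Of the defining NK genes, Ncr1 had 0.464, 0.614 and 0.276 RPKM in miR-27 Tg, against 1.20, 0.0717 and 0.0726 RPKM in miR-24 Tg and 0.0311 to 0.14 RPKM in WT, with overlapping groups. Klrb1c had 0.573, 0.441 and 0.287 RPKM in miR-27 Tg, against 2.03, 0.688 and 0.696 RPKM in miR-24 Tg and 0.0399 to 0.178 RPKM in WT. Each miR-24 Tg library thus lay above every miR-27 Tg library for Klrb1c, as for Klrd1. All 6 libraries lay above WT for Klrb1c but not for Klrd1. The part of NK cells in the cytotoxic genes was not tested. In bulk samples fewer cells of a type and less RNA per cell cannot be told apart.

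**Figure D2:**
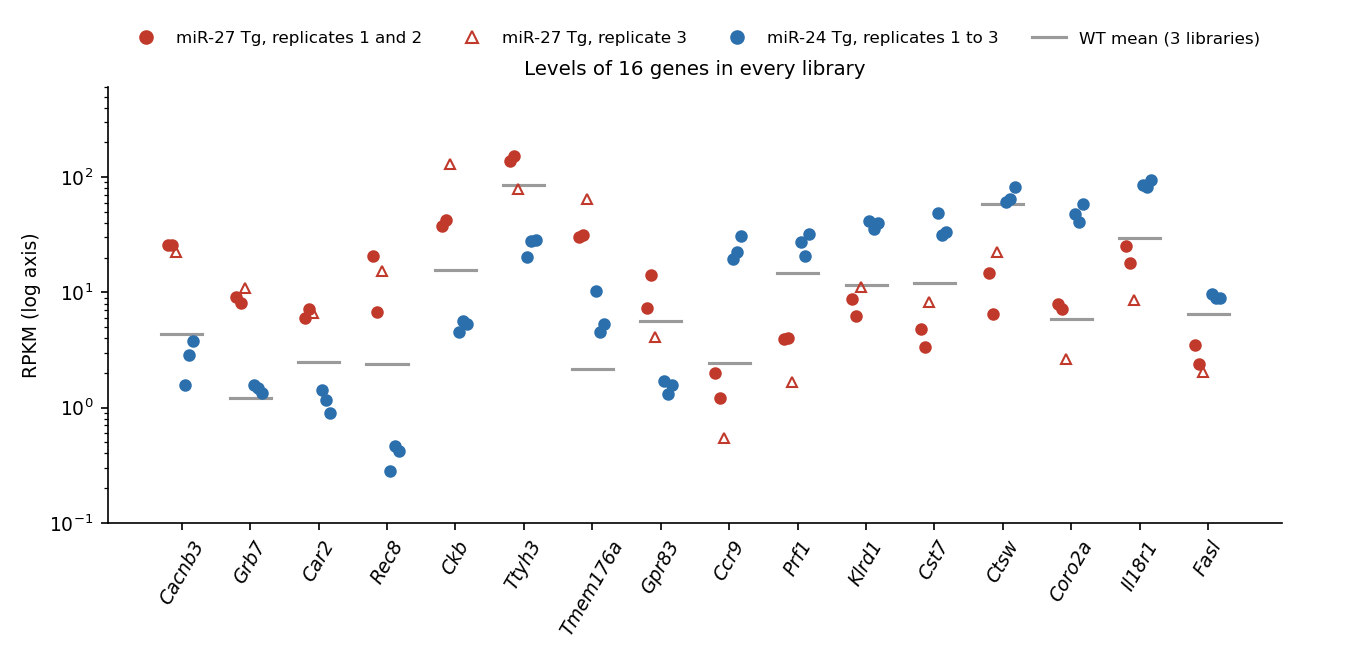
RPKM (log y axis) of 16 genes in each of the 6 libraries, with miR-27 Tg in red (open triangle, replicate 3), miR-24 Tg in blue and the mean of the 3 WT libraries as a grey line. The first 8 genes were higher and the last 8 lower in miR-27 Tg; Prf1 lay at 1.65 to 4.04 RPKM in miR-27 Tg and 20.7 to 31.8 RPKM in miR-24 Tg, and Ttyh3 in WT was near miR-27 Tg replicate 3.

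Interferon-stimulated genes had the largest share of calls among the lists with at least 3 measured genes. Of the 32 measured genes of 34 listed, 27 were higher in miR-27 Tg without replicate 3 and 0 lower (84.4%, against 15.3% of all genes), with a median log2 of 1.09 against -0.00294 over all genes tested. With replicate 3 the median was 1.05 and none was called by limma, with 18 at an unadjusted p under 0.05, all higher. In 21 of the 32 the 3 miR-27 Tg libraries lay above all 3 miR-24 Tg libraries, as in 15.4% of all genes. Oas2, which makes the second messenger that activates RNase L, had 119.6, 115.5 and 61.3 RPKM in miR-27 Tg, against 18.7, 16.3 and 21.1 RPKM in miR-24 Tg and 24.6 to 28.4 RPKM in WT (log2 2.60, SE 0.115, adjusted p = 0.00522). Its relative Oas3 had 47.1, 40.8 and 12.2 RPKM in miR-27 Tg, against 10.2, 6.71 and 9.67 RPKM in miR-24 Tg (log2 2.2, adjusted p = 0.00891). Oas1a had 29.9, 14.9 and 23.6 RPKM in miR-27 Tg, against 5.77, 3.48 and 3.58 RPKM in miR-24 Tg (log2 2.10, adjusted p = 0.0232). For the Oas genes even the lowest miR-27 Tg library exceeded every miR-24 Tg library.

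The antiviral GTPase gene Mx1 behaved otherwise in the third replicate, with 28.7, 14.0 and 3.01 RPKM in miR-27 Tg, against 6.95, 3.26 and 3.33 RPKM in miR-24 Tg, so the groups overlapped. Ifitm3, which blocks virus entry and was not on the list, had 28.6, 23.1 and 20.8 RPKM in miR-27 Tg, against 6.05, 2.24 and 2.88 RPKM in miR-24 Tg and 0.694 to 2.50 RPKM in WT. Of the genes that carry the interferon signal, Stat2 had 81.9, 72.7 and 33.5 RPKM in miR-27 Tg, against 39.4, 36.2 and 36.8 RPKM in miR-24 Tg, and was called without replicate 3. Irf7, the factor that amplifies the response, had 193.4, 150.8 and 154.4 RPKM in miR-27 Tg, against 87.0, 70.4 and 90.1 RPKM in miR-24 Tg and was called as well. Irf9, Ifi44, Xaf1 and Ifi203 were among the genes that were not called. Set against the WT mean, the median of the 32 genes was 1.48, 1.12 and 0.66 in the miR-27 Tg libraries, against 0.29, -0.03 and 0.14 in the miR-24 Tg libraries and 1.10, 0.89 and 0.75 in cluster Tg. The count of 27 fell to 2 without miR-24 Tg replicate 3, 1 without miR-27 Tg replicate 1 and 0 without miR-27 Tg replicate 2, where 29, 27 and 30 genes still had an unadjusted p under 0.05 by limma, and it was 16 with no filter on low values.

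**Figure D3:**
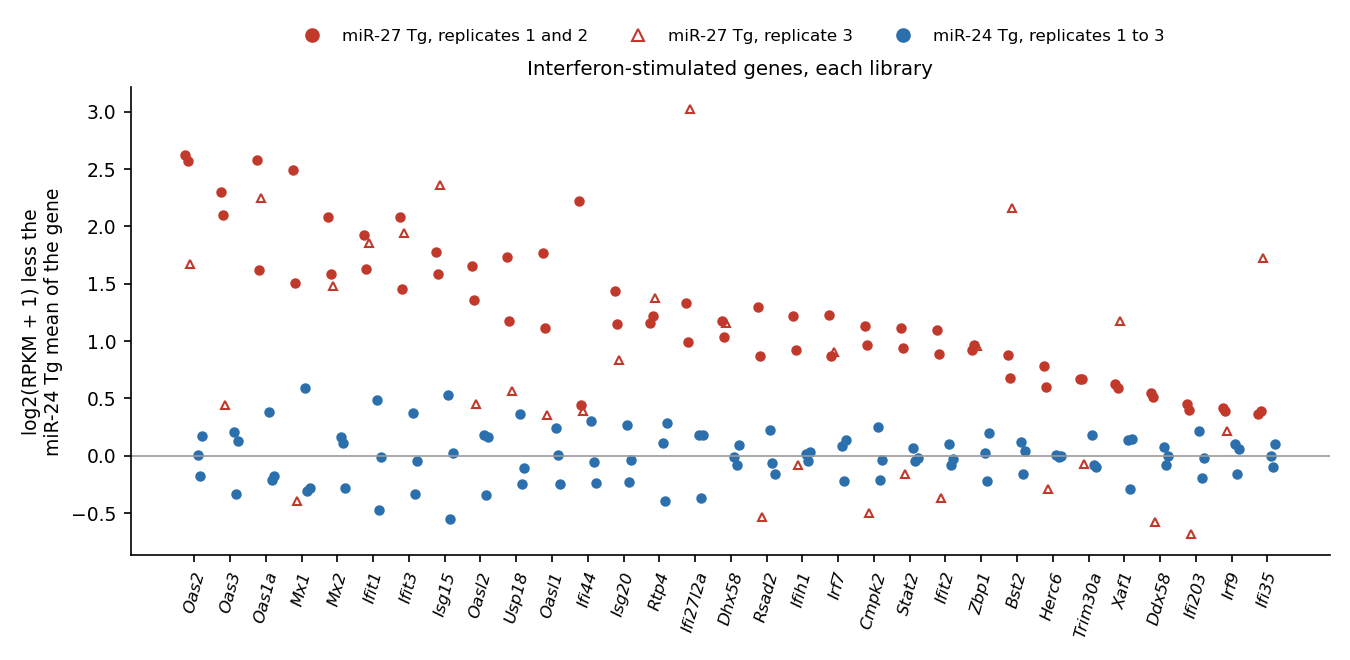
Log2(RPKM + 1) of 31 measured interferon-stimulated genes in each library, less the mean of the 3 miR-24 Tg libraries for that gene (y axis), ordered by the log2 difference without miR-27 Tg replicate 3; red marks miR-27 Tg (open triangle, replicate 3) and blue miR-24 Tg. miR-27 Tg replicates 1 and 2 lie above 0 for every gene plotted, while replicate 3 lies above the miR-24 Tg libraries for some genes and among or below them for others.

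Of 36 measured genes of the T cell receptor (TCR) complex and its proximal signalling, 14 were called higher and 1 lower without replicate 3 (41.7%, against 15.3%), and the median log2 was 0.15, against -0.00294 over all genes tested. Set against the WT mean, the median of the list was 0.16, 0.04 and -0.14 in the miR-27 Tg libraries, against -0.22, -0.10 and -0.13 in the miR-24 Tg libraries, so the groups overlapped with replicate 3. No gene of the list was called with all 6 libraries by limma, with 4 higher and 1 lower at an unadjusted p under 0.05. Cd5, a brake on TCR signalling whose level follows its strength, had 357.2, 336.3 and 431.8 RPKM in miR-27 Tg, against 168.1, 164.8 and 167.4 RPKM in miR-24 Tg and 233 to 270 RPKM in WT (log2 1.05, SE 0.0735, adjusted p = 0.00664). Its relative Cd6 had 266.7, 225.9 and 346.5 RPKM in miR-27 Tg, against 130.1, 152.5 and 144.5 RPKM in miR-24 Tg (log2 0.78, adjusted p = 0.0200). Lck, the kinase that starts the signal, had 753.6, 674.6 and 1284 RPKM in miR-27 Tg, against 423.5, 415.6 and 428.8 RPKM in miR-24 Tg and 625 to 658 RPKM in WT (log2 0.75, adjusted p = 0.0174). For these 3 genes the groups did not overlap, and miR-24 Tg lay below every WT library. The called gene that was lower was Cblb, a ubiquitin ligase that restrains activation, with 23.1, 21.2 and 13.4 RPKM in miR-27 Tg, against 32.2, 35.6 and 45.4 RPKM in miR-24 Tg. The count of higher genes was 5 after quantile normalisation, 8 with no filter, 4 without miR-24 Tg replicate 1, 1 without miR-24 Tg replicate 3 and 0 without either of the other 2 miR-27 Tg libraries, where 14 and 15 genes were higher at an unadjusted p under 0.05 by limma. The coreceptor Cd4 had 617.2, 597.9 and 390.4 RPKM in miR-27 Tg, against 386.2, 393.5 and 351.1 RPKM in miR-24 Tg, and the CD3 chains Cd3d, Cd3e and Cd3g were not called.

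Of 25 genes of the naive state, 3 were called higher and 2 lower without replicate 3 (20%, near the 15.3% of all genes). Igfbp4, which binds insulin-like growth factors, had 466.5, 725.5 and 1024 RPKM in miR-27 Tg, against 173.4, 145.9 and 198.6 RPKM in miR-24 Tg and 475 to 902 RPKM in WT (log2 1.76, adjusted p = 0.0169). Tcf7, the transcription factor TCF-1 of naive and memory T cells, had 1048, 1114 and 558.3 RPKM in miR-27 Tg, against 444.9, 524.1 and 549.0 RPKM in miR-24 Tg and 873 to 979 RPKM in WT (log2 1.10, adjusted p = 0.0157). For both genes every miR-24 Tg library lay below every WT library. Dapl1 went the other way, with 121.3, 196.7 and 262.2 RPKM in miR-27 Tg, against 474.0, 374.1 and 408.8 RPKM in miR-24 Tg and 204 to 246 RPKM in WT. Of 32 effector and memory genes 2 were higher and 4 lower (18.8%, against 15.3%), the lower ones including Prf1 and Fasl. Ly6c1, a surface antigen of memory cells, had 153.9, 248.0 and 391.4 RPKM in miR-27 Tg, against 99.5, 65.1 and 79.5 RPKM in miR-24 Tg. Of helper lineage genes, 1 higher and 2 lower of 10 were called for Th1 (30%), 1 lower of 8 for Th2 (12.5%), none of 7 for Th17 (1 at an unadjusted p under 0.05 by limma), 2 higher and 1 lower of 13 for Tfh (23.1%) and 1 higher of 14 for Treg (7.14%), against 15.3% of all genes.

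Of 36 cytokine receptor and JAK-STAT genes, 2 were higher and 5 lower without replicate 3 (19.4%, near the 15.3% of all genes). Il18r1, a chain of the interleukin 18 receptor, had 25.5, 17.9 and 8.66 RPKM in miR-27 Tg, against 85.3, 81.8 and 95.0 RPKM in miR-24 Tg and 23.9 to 34.3 RPKM in WT (log2 -1.98, adjusted p = 0.00884). The interferon gamma receptor chain Ifngr1 had 51.3, 47.1 and 65.0 RPKM in miR-27 Tg, against 109.3, 122.2 and 97.3 RPKM in miR-24 Tg and 65.9 to 80.7 RPKM in WT (log2 -1.14, adjusted p = 0.0119). Il7r, the receptor chain for the survival cytokine interleukin 7, had 284.0, 265.3 and 97.4 RPKM in miR-27 Tg, against 452.7, 411.8 and 516.3 RPKM in miR-24 Tg and 214 to 324 RPKM in WT (log2 -0.74, adjusted p = 0.0254). All 3 receptors were highest in miR-24 Tg without overlap, above every WT library. Stat4, the factor that carries the interleukin 12 signal, was lower too (log2 -0.74, adjusted p = 0.0291). Of 21 chemokine and homing receptors 3 were higher and 2, Ccr9 and Ccr8, lower (23.8%), and of 19 co-stimulatory and inhibitory receptors 1 was higher and 2 lower (15.8%). In TGF-beta signalling 3 of 17 genes were higher and 1 was lower (23.5%). Among the higher ones, Acvr1b, a type I activin receptor, had 26.6, 27.2 and 4.002 RPKM in miR-27 Tg, against 14.7, 15.8 and 16.8 RPKM in miR-24 Tg, so its direction turns on replicate 3.

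Of 32 cell cycle genes, 4 were called higher and 0 lower without replicate 3 (12.5%, against 15.3%), with a median log2 of 0.50, and 18 were higher without overlap over all 6 libraries, against 15.4% of all genes. Set against the WT mean, the list median was 0.45, 0.55 and 0.68 in miR-27 Tg, against 0.24, -0.12 and 0.13 in miR-24 Tg. The WT libraries, each set against the other WT libraries, varied as well, at -0.24, 0.42 and -0.27. At an unadjusted p under 0.05 by limma, 16 were higher without miR-27 Tg replicate 3, and 7 with miR-24 Tg replicate 3 left out as well. Ccnd3, a D-type cyclin of lymphocytes, had 151.1, 162.1 and 229.2 RPKM in miR-27 Tg, against 75.4, 77.4 and 78.2 RPKM in miR-24 Tg and 97.0 to 128 RPKM in WT (log2 1.01, adjusted p = 0.00664). E2f2, an E2F transcription factor, had 13.2, 19.3 and 23.9 RPKM in miR-27 Tg, against 8.60, 7.24 and 7.61 RPKM in miR-24 Tg (log2 0.95, adjusted p = 0.0298). Both genes were higher in each miR-27 Tg library than in any miR-24 Tg library. Of 26 apoptosis genes 1 was higher and 5 lower (23.1%, against 15.3%). Bid, which links death receptors to mitochondria, had 5.86, 5.59 and 5.40 RPKM in miR-27 Tg, against 15.4, 13.1 and 13.7 RPKM in miR-24 Tg and 11.7 to 13.2 RPKM in WT (log2 -1.16, adjusted p = 0.00871). Of 24 genes of cholesterol and fatty acid synthesis 2 were higher and 2 lower (16.7%, against 15.3%), and Fasn, fatty acid synthase, had 40.2, 43.8 and 29.5 RPKM in miR-27 Tg, against 19.9, 17.2 and 17.6 RPKM in miR-24 Tg and 31.9 to 33.1 RPKM in WT. Of 20 glycolysis genes 4 were higher and 2 lower (30%, against 15.3%), with Pdk1 among the lower ones. Pdk1, which slows pyruvate oxidation, had 40.2, 32.5 and 26.8 RPKM in miR-27 Tg, against 58.9, 69.9 and 67.7 RPKM in miR-24 Tg and 94.5 to 99.2 RPKM in WT. MicroRNA processing and silencing genes gave 3 higher and 2 lower calls of 20 (25%), immediate early genes 1 lower of 25 (4%) and heat stress genes 1 higher of 14 (7.14%), against 15.3% of all genes.

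The direction of 2 large lists was set by replicate 3. The 49 ribosomal protein genes had a median log2 of 0.41 with it and -0.21 without it, with 3 called lower without it (6.12%, against 15.3% of all genes), among them Rpl13, at 26.7, 26.2 and 258.9 RPKM in miR-27 Tg, against 36.0, 38.7 and 37.5 RPKM in miR-24 Tg. The 44 nuclear-encoded respiratory chain genes had a median of 0.53 with it and -0.01 without it, with 2 called higher and 4 lower (13.6%).

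Described targets of the 2 microRNAs, collected from the literature, were read next. Of 21 measured miR-24 targets, 6 were higher in miR-27 Tg and 1 lower without replicate 3 (33.3%, against 15.3%), with a median log2 of 0.42. H2afx, the histone variant of the DNA damage response, had 23.6, 25.3 and 59.9 RPKM in miR-27 Tg, against 8.94, 12.4 and 8.78 RPKM in miR-24 Tg and 21.6 to 25.1 RPKM in WT (log2 1.22, SE 0.160, adjusted p = 0.0169). E2f2 was on this list as well, and Cdk4, the partner of D-type cyclins, had 98.4, 99.0 and 151.0 RPKM in miR-27 Tg, against 77.6, 65.7 and 68.5 RPKM in miR-24 Tg. The remaining higher genes were Acvr1b, Tgfb1 and Furin, a protease that matures TGF-beta, and the lower one was Fasl. The count of 6 was 2 with no filter, 4 after quantile normalisation, 3 without miR-24 Tg replicate 1 and 0 without miR-24 Tg replicate 3 or without either other miR-27 Tg library, where 6 genes each time were higher at an unadjusted p under 0.05 by limma.

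Of 16 measured miR-27 targets, 1 was higher and 1 lower without replicate 3 (12.5%, against 15.3%), with a median log2 of -0.12. At an unadjusted p under 0.05 by limma, 3 were higher and 5 lower. Over all 6 libraries 3 were higher and 6 lower without overlap, against 15.4% and 14.6% of all genes. The largest difference was that of Zbtb10, with 0.273, 0.209 and 0.345 RPKM in miR-27 Tg, against 1.72, 5.86 and 1.83 RPKM in miR-24 Tg. It was not called (log2 -1.60 without replicate 3, adjusted p = 0.0693, limma). The lower one was Phb, prohibitin, whose direction turned with replicate 3, and the higher one was Bak1, a pore-forming BCL2 relative. Gata3, the Th2 master regulator, had 41.7, 28.8 and 49.6 RPKM in miR-27 Tg, against 23.2, 39.2 and 23.3 RPKM in miR-24 Tg, and the NF-kB subunit gene Rel had 14.2, 14.6 and 1.40 RPKM in miR-27 Tg, against 15.1, 28.0 and 17.4 RPKM in miR-24 Tg. Neither was called. Foxo1, Runx1, Smad3 and Nfe2l2 were not called either, with log2 values between -0.29 and 0.40.

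Genes with seed sites were compared across the whole transcriptome. A 3′ UTR from the GENCODE annotation of GRCm38 was matched to 9920 of the 10613 genes (93.5%), and the sense strand was searched for the miR-27 site ACTGTGA and the miR-24 site CTGAGCC. These letters stood in 15.9% and 17.4% of the 3′ UTRs of tested genes, and in 15.1% and 15.2% of all matched 3′ UTRs. Without replicate 3, genes with a miR-27 site only (1167) had a median log2 of -0.109, genes with a miR-24 site only (1324) of 0.089, genes with both (407) of -0.016 and genes with neither (7022) of -0.001. Of the genes with a miR-27 site only, 61 were called higher and 151 lower in miR-27 Tg (5.23% and 12.9%). Of the genes with a miR-24 site only, 198 were called higher and 43 lower (15% and 3.25%), while neither-site genes gave 560 higher and 474 lower (7.97% and 6.75%). With replicate 3 the 4 medians were -0.203, 0.062, -0.115 and 0.065, and genes with a site have longer 3′ UTRs (medians of 1932 and 1812 bases, against 736 bases for neither), the property along which replicate 3 departed from the other libraries.

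More sites went with larger medians without replicate 3. Genes with 2 or more miR-27 sites and no miR-24 site (142) had a median of -0.214, against -0.092 for those with 1 site, and 2 were called higher and 24 lower. Genes with 2 or more miR-24 sites and no miR-27 site (241) had a median of 0.137, against 0.075 for those with 1 site, and 51 were called higher and 4 lower. Genes with more sites also had longer 3′ UTRs, with medians of 3312 against 1775 bases for miR-27 and 2822 against 1623 bases for miR-24. The number of sites was thus not separated from 3′ UTR length. In 3′ UTRs of 1000 to 3000 bases, whatever the number of sites, the medians were -0.088 (miR-27 sites), 0.078 (miR-24 sites) and 0.004 (neither). Among called genes with a miR-27 site only that were lower in miR-27 Tg, the WT mean was nearer to miR-24 Tg in 107 of 151 (70.9%), against 63.1% of the lower called genes with neither site. Among called genes with a miR-24 site only that were higher, it was nearer to miR-27 Tg in 114 of 198 (57.6%), against 45.9% of the higher called genes with neither site. Neither difference was tested.

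**Figure D4:**
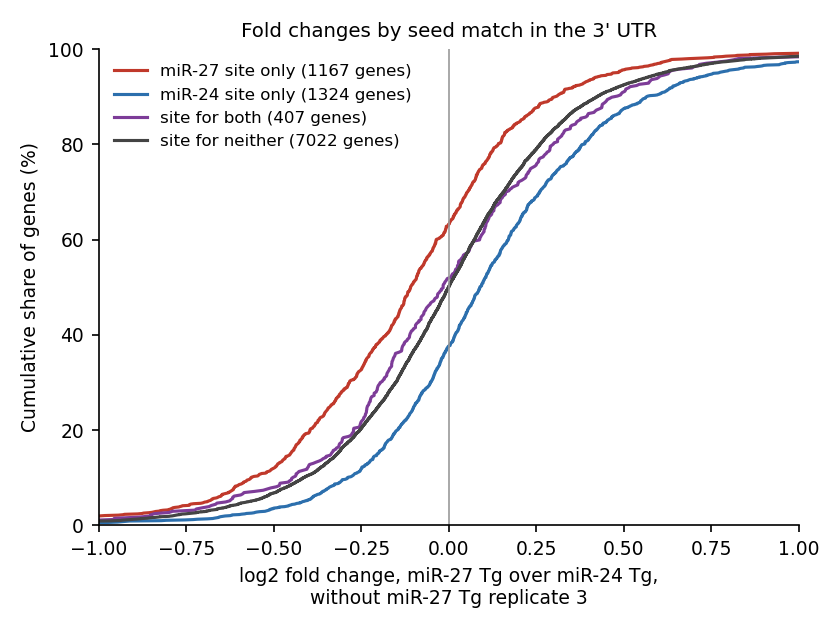
Cumulative share of genes (y axis, percent) by log2 fold change of miR-27 Tg over miR-24 Tg without miR-27 Tg replicate 3 (x axis), for genes with a miR-27 site only, a miR-24 site only, both or neither in the 3′ UTR. The curve of miR-27 sites lies left of that of neither (medians -0.109 and -0.001) and the curve of miR-24 sites right of it (median 0.089).

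Each library was then set against the WT mean, within 3′ UTRs of 1000 to 3000 bases and relative to genes with neither site. Genes with a miR-27 site had medians of -0.099, -0.097 and -0.180 in the miR-27 Tg libraries, against 0.001, -0.028 and -0.011 in the miR-24 Tg libraries. Genes with a miR-24 site had medians of -0.021, 0.006 and 0.030 in the miR-27 Tg libraries, against -0.097, -0.094 and -0.092 in the miR-24 Tg libraries. Both differences separated the groups without overlap, replicate 3 included. The WT libraries, each set against the mean of the other WT libraries, lay between -0.022 and 0.033. In cluster Tg, which over-expresses both microRNAs, both medians were below 0 in all 3 libraries (-0.080, -0.073 and -0.076 for miR-27 sites and -0.090, -0.049 and -0.056 for miR-24 sites). Without the restriction to 1000 to 3000 bases, replicate 3 gave -0.550 for miR-27 sites and -0.300 for miR-24 sites.

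**Figure D5:**
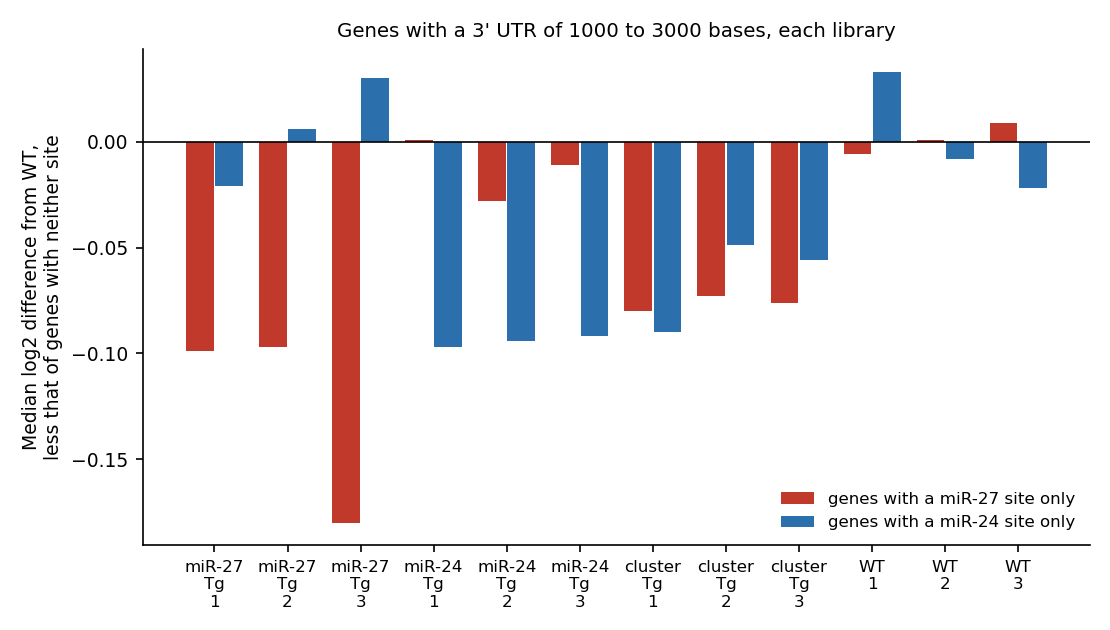
Median log2 difference from the WT mean of genes with a miR-27 site only (red) or a miR-24 site only (blue), less that of genes with neither, in each library (y axis), for 3′ UTRs of 1000 to 3000 bases; cluster Tg over-expresses the whole cluster. Red bars reach -0.097 or lower in miR-27 Tg, blue bars lie between -0.097 and -0.092 in miR-24 Tg, and both are negative in cluster Tg. Each WT library is set against the mean of the other WT libraries.

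The called genes with 2 or more sites for one microRNA, none for the other and the largest differences show both directions. For miR-24 these were Ttyh3, Igfbp4, H2afx, Mbd6 and Aars, all higher in miR-27 Tg. Mbd6, a methyl-CpG-binding domain protein, had 58.8, 64.3 and 42.3 RPKM in miR-27 Tg, against 25.8, 27.6 and 29.6 RPKM in miR-24 Tg and 36.5 to 53.4 RPKM in WT. Aars, the alanyl-tRNA synthetase, had 28.5, 30.8 and 37.4 RPKM in miR-27 Tg, against 13.4, 12.4 and 14.6 RPKM in miR-24 Tg and 19.3 to 23.2 RPKM in WT. For all 5 genes the miR-24 Tg libraries lay below every WT library and below every miR-27 Tg library. The sites are shown with 11 bases before and 6 after and the seed match in capitals, for the gene with the largest difference and for H2afx, a described target.
Ttyh3, base 294 of the 3′ UTR: tcttgggctccCTGAGCCctgctc
Ttyh3, base 687: caggtgccaagCTGAGCCcaggtc
Ttyh3, base 1039: cctggctgaccCTGAGCCagcaag
H2afx, base 85: cacagaaagagCTGAGCCacttcg
H2afx, base 766: ccctgtctggaCTGAGCCtctggc
The third site of Ttyh3 and the first of H2afx are followed by the A that makes an 8-base match.

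For miR-27 the genes were Slc30a4, Serpini1, Akirin1, Fuca2 and Prmt2, all lower in miR-27 Tg. Slc30a4, a zinc transporter, had 2.46, 3.48 and 2.09 RPKM in miR-27 Tg, against 7.84, 10.3 and 9.44 RPKM in miR-24 Tg and 5.93 to 9.42 RPKM in WT (log2 -1.36, SE 0.166, adjusted p = 0.0156). Akirin1, a nuclear protein, had 12.4, 14.2 and 8.37 RPKM in miR-27 Tg, against 26.8, 22.7 and 24.5 RPKM in miR-24 Tg and 23 to 25 RPKM in WT. Prmt2, an arginine methyltransferase, had 5.72, 5.43 and 6.13 RPKM in miR-27 Tg, against 12.3, 11.7 and 10.6 RPKM in miR-24 Tg and 9.65 to 11.4 RPKM in WT. Serpini1, a serine protease inhibitor, and Fuca2, a fucosidase, had log2 values of -1.07 and -0.94. In all 5 genes each miR-27 Tg library lay below every WT library and every miR-24 Tg library, replicate 3 included. The sites of the gene with the largest difference and of the gene with 3 sites are shown in the same way.
Slc30a4, base 2223 of the 3′ UTR: cctctcagttaACTGTGAgaactc
Slc30a4, base 2955: actgagcagctACTGTGAagagct
Prmt2, base 71: cctggccacccACTGTGAcatcca
Prmt2, base 288: gtgtacctgtgACTGTGAtgtccg
Prmt2, base 356: tatacctgtggACTGTGActtgca
The second site of Slc30a4 ends in the A of an 8-base match. A seed match is a description of the sequence, and whether these sites are used was not tested.

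Markers of other cells varied within both lines. Summed RPKM of 14 B cell markers was 153, 396 and 875.7 in miR-27 Tg, against 453.7, 111.3 and 151.2 in miR-24 Tg and 19.1 to 31.1 in WT. Neutrophil markers (10 genes) summed to 14.0, 37.1 and 693.6 in miR-27 Tg, against 132.7, 26.0 and 3.02 in miR-24 Tg, and erythroid markers (8 genes) to 4.74, 342.7 and 594.8 in miR-27 Tg, against 98.1, 23.2 and 7.43 in miR-24 Tg. The groups overlapped for each sum, and replicate 3 had the highest of the 6. None of 12 measured B cell, 5 neutrophil, 3 erythroid or 5 thymocyte markers was called without replicate 3 by limma, and none had an unadjusted p under 0.05. Of 7 CD8 T cell markers 1, Runx3, was called higher and 2, Ctsw and Crtam, lower (42.9%, against 15.3% of all genes), and of 7 myeloid markers 1 was higher (14.3%), the integrin chain Itgam, with 14.5, 11.3 and 4.29 RPKM in miR-27 Tg, against 4.06, 5.74 and 3.12 RPKM in miR-24 Tg. None of 11 genes of MHC class II presentation was called by limma, with 1 lower at an unadjusted p under 0.05. The thymocyte genes Rag2 and Ptcra were listed at 0 in all 6 libraries, and the CD4 T cell markers were present in all of them, with 312.5 to 564.7 RPKM of Cd3e in miR-27 Tg and 266.6 to 352.4 RPKM in miR-24 Tg. The part of these cells in the results above was not tested.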

How the data were processed

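RNA of sorted naive CD4 T cells was sequenced (total RNA from a miRNeasy kit, TruSeq RNA libraries, Illumina HiSeq, per the labels' protocols). The authors deposited 1 table of RPKM values with 23953 gene rows and 18 library columns. Each column was assigned to a genotype, but 2 columns of miR-23 Tg share a name and were not tied to single samples. The submitters' processing notes name the mouse build mm9 and the tools HOMER and STAR (2.2.0c). They do not state which step each tool did, which gene models were used, or how reads on shared sequence or on either strand were counted, so overlapping genes and gene copies are uncertain. No counts could be had, so no count test was run. Of the rows, 389 held a value above 0 and below 0.001 RPKM, and an entry of 0 is described as listed at 0. Relative depth was read from values below 0.1 RPKM.

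Genes at 1 RPKM or more in at least 3 of the 6 libraries were fitted on log2(RPKM + 1), which understates changes of low genes, in R 4.3.3 with the moderated test of limma 3.58.1 (lmFit; eBayes, trend on), genotype being the only term. The same 10613 genes were fitted without miR-27 Tg replicate 3, and p-values were Benjamini-Hochberg adjusted over all of them at a threshold of 0.05. The scripts were tested on simulated data. For 2 symbols that occurred more than once, the row of higher mean was kept, and 25 symbols had been turned into dates and are not named. RefSeq and GENCODE sequences of GRCm38 were used by symbol, never by the coordinates of mm9, and positions in a 3′ UTR count from its first base after the stop codon.

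Named genes were the 12 largest rises and falls among genes called in both fits and among those called only without replicate 3, up to 4 called members per list (8 for described targets; the best expressed where under 2 were called), the hairpins, Xist and Ddx3y, and the 5 called genes with the largest differences and 2 or more sites of one microRNA. Not every gene the rule takes is printed, and some single genes are left out here. Interferon and TCR list members beyond these (Stat2, Irf7, the CD3 genes), the miR-27 target Zbtb10, the NK and thymocyte markers and unnamed predicted genes were added after their values were seen. The comparison, the 34 gene lists and the rule were chosen with earlier results of these data known. Alternatives were other pseudocounts, filters, scalings, library weights, fits to more libraries, a block on the replicate number and leaving out each library.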

Additional observations from a re-analysis of the deposited data

How the results depend on the processing

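With all 6 libraries, 8 genes were called, and the count was 1406 in a fit to all 18 libraries, 3826 with library weights, 48 after quantile normalisation, 3 with a mean RPKM of at least 5, 4 with no filter, 5 with a pseudocount of 0.5 and 1 without microRNA and small nucleolar RNA rows, an alternative added after seeing the data. Leaving out each library in turn gave 3 to 1628 calls, the highest without miR-27 Tg replicate 3, whose library weight was 0.0282. A pseudocount of 0.1 gave 6 calls and median-ratio scaling 8. Without miR-27 Tg replicate 3, 1628 genes were called, and the count was 3575 with library weights, 2951 in a fit to 16 libraries without DKO replicate 3 (mice that lack both clusters; added after seeing the data) and 984 with no filter. Leaving out each remaining library gave 4 to 1806 calls. The cause of these shifts was not tested. The deviations of same-numbered libraries from their group means had correlations of -0.109, 0.0218 and 0.0508 for replicates 1, 2 and 3. The miR-27 Tg mean includes replicate 3, which stood apart, so these values cannot decide whether the replicate numbers pair the libraries. A replicate block left 1 call with all 6 libraries, and without miR-27 Tg replicate 3 it left 0 by limma, with 2266 genes at an unadjusted p under 0.05.

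Of the named genes called under one setting or the other, 5 changed direction without miR-27 Tg replicate 3 or with library weights. Acvr1b had a log2 of -0.09 with all 6 libraries, 0.74 without that replicate and 0.67 with weights. Ndufs6 had 0.25, -0.51 and -0.40, Phb 0.14, -0.47 and -0.51, Rpl13 0.60, -0.48 and -0.47, and Rpl23 0.20, -0.54 and -0.49, in the same order. Leaving out each library in turn gave -0.51 to 0.74 for Acvr1b, -0.51 to 0.65 for Ndufs6, -0.47 to 0.49 for Phb, -0.48 to 1.15 for Rpl13 and -0.54 to 0.59 for Rpl23. A further 6 named genes that were called in neither fit changed sign without that replicate, among them S100a8 (1.11 with all 6 libraries and -0.62 without it) and Dntt (0.09 and -0.15). The cause was not tested. The medians of genes with a miR-27 site only and of genes with a miR-24 site only kept their sign with 6-base or 8-base matches, in 3′ UTRs of 1000 to 3000 bases and after quantile normalisation. That of genes with both sites did not: without miR-27 Tg replicate 3 it was -0.016, but 0.028 with 6-base matches and 0.018 in 3′ UTRs of 1000 to 3000 bases. With all 6 libraries, the median for a miR-24 site only was not above that of genes with neither site where 3′ UTR length was unrestricted. It was 0.062 against 0.065 with 7-base, 0.036 against 0.040 with 8-base and 0.097 against 0.121 with 6-base matches. In 3′ UTRs of 1000 to 3000 bases it was 0.024 against -0.074. With 2 or 3 libraries per line and no counts, small differences and low genes are measured poorly, and hairpin and small nucleolar RNA rows most of all.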
